A study of Homo sapiens with 8 samples.

Results

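The 10 genes DUSP1, DUSP4, DUSP5, DUSP6, DUSP8, DUSP10, SPRY2, SPRY4, SPRED1 and SPRED2 encode inhibitors that act back on MAP kinase signalling, and they were taken by symbol out of the 58828 genes counted in 2 prostate cancer cell lines. RNA was sequenced from 22RV1 cells and from DU145 cells, both established human lines. Each line had been transduced with a doxycycline-inducible lentiviral vector, either empty (vector) or carrying HA-tagged PAGE4, a cancer/testis antigen of the prostate, and selected with puromycin. All cells, controls included, received doxycycline at 1 mg/L for at least 48 h before analysis, and either PBS or 200 mM H2O2 for 12 h before analysis, the dose given by the labels and the methods, although the study names a lower one elsewhere. Each of the 8 conditions had 1 library, and each construct was 1 selected culture per line, so that pairs of libraries from a line share its cultures.

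Mitogen-activated protein (MAP) kinases are switched on by phosphorylation of a threonine and a tyrosine in the activation loop. The dual-specificity phosphatases of this group remove both phosphates: DUSP1 and DUSP4 do so in the nucleus, DUSP5 acts on ERK in the nucleus, DUSP6 acts on ERK in the cytoplasm, and DUSP8 and DUSP10 act mainly on JNK and p38. Sprouty proteins (SPRY2, SPRY4) restrain the route from receptor tyrosine kinases to RAS, and Spred proteins (SPRED1, SPRED2) bring neurofibromin to the membrane and restrain RAS. Several of these genes are transcribed in response to the kinases that they inhibit, and DUSP1 is also known as a gene induced by oxidative stress.

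Total counts per library ran from 25482984 to 43310401. PAGE4 had 0 or 1 read in the vector libraries and 1001 to 1489 reads in the PAGE4 libraries, at least 338-fold above a floor of 3 counts. Among the markers fixed for 22RV1, the kallikrein gene KLK2 was at 14.3 to 71.4 CPM (counts scaled to library size with TMM factors) in the 22RV1 libraries and at most 0.111 CPM in the DU145 libraries, and FOLH1 at 42.3 to 120.2 CPM and at most 0.074 CPM. The 6 DU145 markers summed to 675.2 to 834.1 CPM in DU145 and 213.5 to 326.3 CPM in 22RV1. KRT5 and TRPM8 were at or near 0 in their own line, and CD44 and LGALS1 were at like levels in both. Markers of other cells stayed low, with sums of at most 27.7 CPM for 4 fibroblast genes (mostly COL1A1), 1.23 CPM for 4 leukocyte genes and 1.01 CPM for 3 endothelial genes. KLK3 was lower in both H2O2 libraries of 22RV1, at 3.68 and 6.93 CPM against 22.9 and 24 CPM with PBS. In bulk RNA, fewer cells of one kind and less RNA per cell cannot be told apart.

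Like most members, DUSP1 and DUSP8 were higher with H2O2 in all 4 pairs of libraries. Their start sites are shown because they hold the only members' matches to the cAMP response element (CRE, TGACGTCA). CREB, ATF and JUN proteins can bind this site. Windows from 250 bases before to 50 bases after the start were taken from RefSeq (GRCh38.p14) for 8 of the 10 genes, and DUSP4 and DUSP5 had no entry. On both strands, 1.85% of 35116 windows of this length held a CRE, 7.71% an AP-1 site (TGANTCA), 13.3% an antioxidant response element (TGACNNNGC), 10.3% an ETS site (CCGGAAG), 7.26% an E-box (CACGTG), 1.29% a CArG box and 11.5% a TATA box (TATAAA). The 150 bases upstream of the start follow, read toward the gene, with matches in capitals. DUSP1 carries a CRE, an antioxidant response element whose bases overlap an E-box, and a TATA box, and DUSP8 carries a pair of CREs.
DUSP1, chr5:172771196-172771345, minus strand: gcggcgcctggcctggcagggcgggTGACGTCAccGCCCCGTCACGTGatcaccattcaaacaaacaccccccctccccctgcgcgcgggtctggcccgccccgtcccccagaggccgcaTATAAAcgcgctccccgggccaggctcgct
DUSP8, chr11:1572272-1572421, minus strand: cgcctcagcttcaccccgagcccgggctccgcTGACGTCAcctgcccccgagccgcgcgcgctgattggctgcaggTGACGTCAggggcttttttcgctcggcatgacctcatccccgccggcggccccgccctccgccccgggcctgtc
Relative to the start, the CRE of DUSP1 began at -125, its antioxidant response element at -115, its E-box at -108 and its TATA box at -30, and the CREs of DUSP8 began at -118 and -74. Among the other 6 genes with windows, DUSP10 and SPRY4 each held an antioxidant response element, at -8 and -228, and SPRED2 held AP-1 sites at -6 and 35 and a TATA box at -31. DUSP10, SPRED2 and SPRY2 had more than 1 window, so sites listed for SPRED2 need not share a start. Such genes also had more room for a match than the shares per window allow for. DUSP6, SPRY2 and SPRED1 held none of the 7 motifs, and no member held an ETS site or a CArG box. A match is a run of letters and not a measured binding site.

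H2O2 was compared with PBS in the 4 pairs of libraries that share line and construct, to ask how the feedback genes moved with the oxidant. In edgeR's quasi-likelihood test over these pairs, with Benjamini-Hochberg adjustment over 19784 genes, 6 of the 10 members rose (DUSP5, DUSP6, DUSP8, DUSP10, DUSP1 and SPRED1), none fell, and DUSP4, SPRY4, SPRED2 and SPRY2 did not pass the limit of 0.05. Of all genes, 10.2% rose and 12.7% fell. The members, and the lists of other genes read below, were chosen with earlier results of these data known. Their counts beside the shares of all genes are thus descriptions and not tests. The median log2 fold change was 1.25 over the members and -0.04 over all genes. All 10 members had enough counts to be tested. The p-values measure the spread between these pairs and do not rest on independent replicates.

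DUSP5 (chr10:110497907-110511533), the nuclear ERK phosphatase, rose most, by 2.95 on the log2 scale (SE 0.25, 7.75-fold, adjusted p = 0.000933). In 22RV1 cells it had 0.56 CPM in vector cells with PBS, 8.82 CPM in vector cells with H2O2, 0.771 CPM in PAGE4 cells with PBS and 3.15 CPM in PAGE4 cells with H2O2. In DU145 cells the corresponding levels were 19.1, 164, 26.9 and 176 CPM. Every H2O2 library of a line lay above both of its PBS libraries, but the 22RV1 levels rest on few reads, 25 and 31 with PBS. The pseudogene DUSP5P1 had 76 to 126 reads in 22RV1 and 11 to 24 in DU145, and reads exchanged between the copies could not be traced in counts per gene.

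DUSP1 (chr5:172768096-172771195), also called MKP-1, rose by 1.23 (SE 0.22, 2.35-fold, adjusted p = 0.00854). Its levels in 22RV1 were 17.5 and 63.5 CPM in vector cells with PBS and H2O2, and 21.5 and 67.8 CPM in PAGE4 cells. In DU145 they were 40.1 and 69.1 CPM in vector cells and 43 and 67 CPM in PAGE4 cells. The H2O2 libraries of both lines thus lay within 63.5 to 69.1 CPM, while the PBS libraries of 22RV1 lay below those of DU145.

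DUSP4 (chromosome 8), also called MKP-2, had a log2 fold change of 1.65 with a wide error (SE 0.51, adjusted p = 0.0534). In 22RV1 it stood at 20.8 and 153 CPM in vector cells with PBS and H2O2, and at 14.3 and 114 CPM in PAGE4 cells. In DU145 it stood at 55.2 and 66 CPM in vector cells and 62 and 88 CPM in PAGE4 cells. It was higher with H2O2 in all 4 pairs, and the sizes differed widely between the lines. The call passed with DESeq2's Wald test (adjusted p = 0.0351), with DESeq2 size factors (0.0486), with additive terms (0.0379) and without either DU145 pair (0.033 and 0.0381). It did not pass without either 22RV1 pair, with values of 1.19 (adjusted p = 0.129, without the PAGE4 pair) and 1.22 (adjusted p = 0.141, without the vector pair). Without a count filter it passed in edgeR's test (adjusted p = 3.69e-29), but with an SE of 0.14, which does not reflect the spread between these pairs.

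DUSP6 (chr12:89347235-89352501), the cytoplasmic ERK phosphatase, rose by 1.54 (SE 0.19, 2.91-fold, adjusted p = 0.00311). Its levels in 22RV1 were 6.55 and 17.7 CPM in vector cells with PBS and H2O2 and 7.02 and 13 CPM in PAGE4 cells. In DU145 they were 11.5 and 40.8 CPM in vector cells and 11 and 43.8 CPM in PAGE4 cells. DUSP6 shares 1105 exonic bases with a long noncoding RNA on the opposite strand, and the strand setting of the counting is not given in the sources used here, so that reads of the gene and of this RNA cannot be told apart if strand was ignored.

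DUSP8 and DUSP10, which act mainly on JNK and p38, both rose. DUSP8 (chr11:1554051-1572271) changed by 1.28 (SE 0.16, 2.42-fold, adjusted p = 0.00295), from 33.9 to 97.3 CPM in 22RV1 vector cells, 37.9 to 74.8 CPM in 22RV1 PAGE4 cells, 4.75 to 15.6 CPM in DU145 vector cells and 7.62 to 14.3 CPM in DU145 PAGE4 cells. DUSP10 (chr1:221701424-221742089) changed by 1.05 (SE 0.14, 2.08-fold, adjusted p = 0.00409), from 14.6 to 32.2 CPM in 22RV1 vector cells, 16.9 to 29.9 CPM in 22RV1 PAGE4 cells, 4.28 to 8.07 CPM in DU145 vector cells and 3.11 to 8.06 CPM in DU145 PAGE4 cells. Both genes were several times higher in 22RV1 than in DU145 in every condition, and their H2O2 libraries lay above the PBS libraries within each line. The pseudogene DUSP8P5 had 39 to 215 reads per library.

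SPRY4 (chr5:142310427-142326455) had a log2 fold change of 1.39 over the 4 pairs (SE 0.57, adjusted p = 0.119), with opposite pictures in the lines. In 22RV1 it was at 36.3 and 46 CPM in vector cells with PBS and H2O2 and at 86.7 and 74.4 CPM in PAGE4 cells. In DU145 it was at 5.26 and 49.6 CPM in vector cells and at 7.51 and 41.9 CPM in PAGE4 cells. In 22RV1 the libraries separated by construct, and in DU145 they separated by treatment. Without the 22RV1 PAGE4 pair the value was 2.02 (adjusted p = 0.0437). It was 0.79 without the DU145 vector pair (adjusted p = 0.303) and 0.97 without the DU145 PAGE4 pair (adjusted p = 0.312). Without a count filter it was 1.38 (adjusted p = 7.94e-17), but with an SE of 0.15, which does not reflect the spread between the pairs. SPRY2 (chr13:80335976-80341126) had a log2 fold change of 0.27 (SE 0.22, adjusted p = 0.406), with 19.1 and 18.4 CPM in 22RV1 vector cells, 21.9 and 16.6 CPM in 22RV1 PAGE4 cells, 18.6 and 34.5 CPM in DU145 vector cells and 19.2 and 30 CPM in DU145 PAGE4 cells. The 22RV1 libraries and the DU145 PBS libraries of SPRY2 lay close together, and the DU145 H2O2 libraries stood above them.

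Among the Spred genes, which act on RAS, values were small. SPRED1 (chr15:38252836-38357249) rose by 0.52 (SE 0.12, 1.43-fold, adjusted p = 0.019), from 29.5 to 38.4 CPM and 32.2 to 40.1 CPM in vector and PAGE4 cells of 22RV1, and from 34.3 to 50.4 CPM and 31.4 to 55.2 CPM in those of DU145. This call was lost without either DU145 pair (adjusted p = 0.0817 without the vector pair and 0.0822 without the PAGE4 pair). SPRED2 (chr2:65310851-65432637) had a log2 fold change of 0.27 (SE 0.12, adjusted p = 0.152), with 71 and 114 CPM in 22RV1 vector cells, 80 and 97.8 CPM in 22RV1 PAGE4 cells, and 68.4 to 71.4 CPM over the 4 DU145 libraries.

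**Figure D1:**
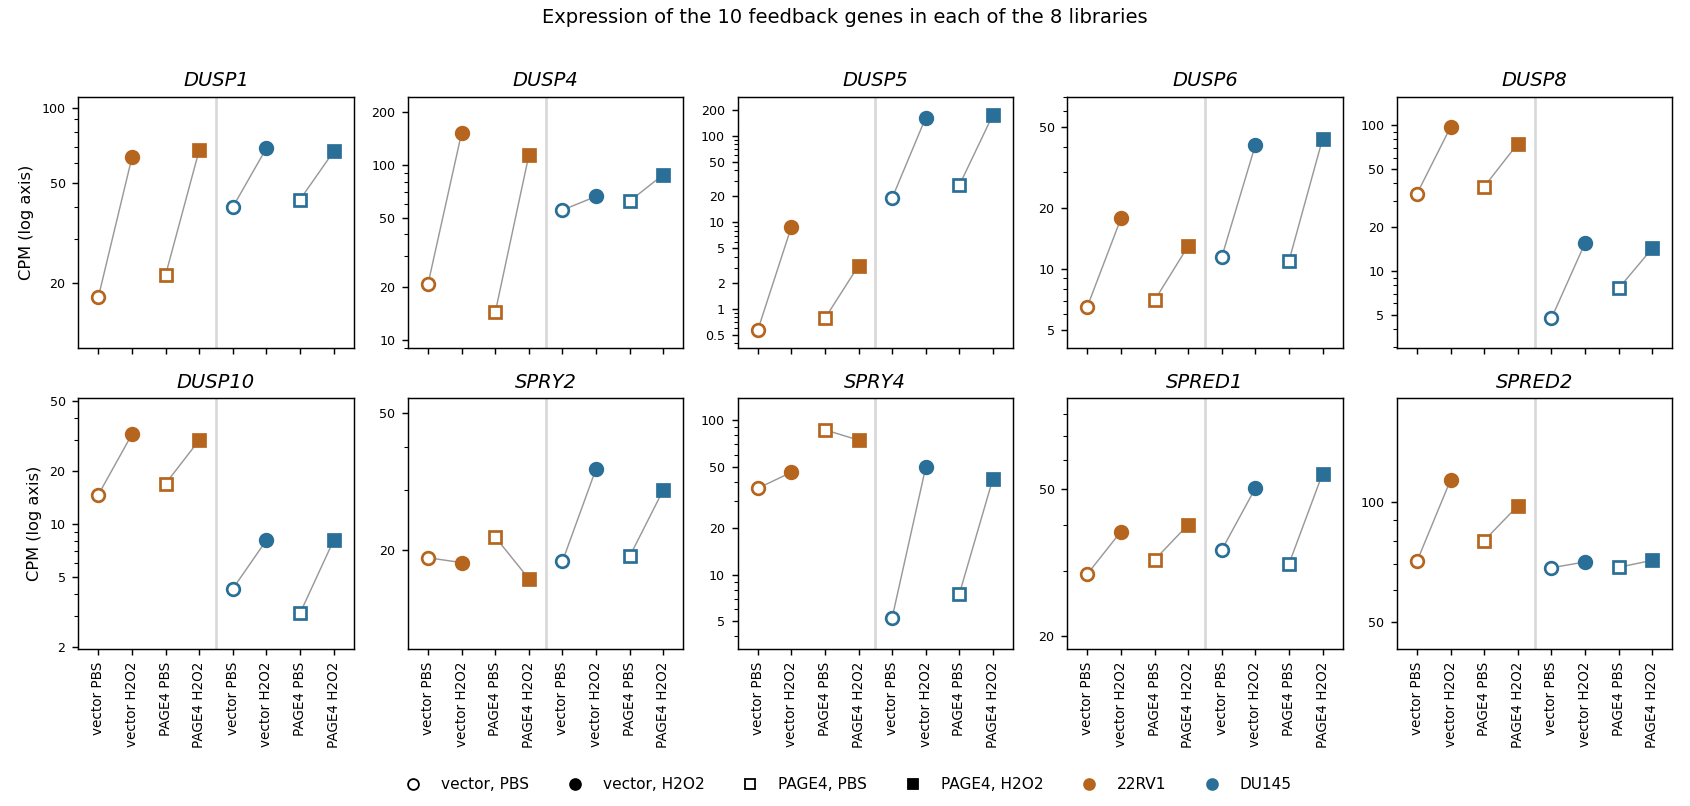
Expression of each member in CPM on a log axis (vertical) in the 8 libraries (horizontal), with circles for vector cells, squares for PAGE4 cells, open symbols for PBS, filled symbols for H2O2, and lines joining the libraries of 1 pair. DUSP5 ran from 0.56 CPM in 22RV1 vector cells with PBS to 176 CPM in DU145 PAGE4 cells with H2O2, while SPRED2 stayed between 68.4 and 71.4 CPM in DU145.

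Within single pairs, a call meant a more than 1.5-fold difference in normalized count, and only genes averaging 10 or more normalized counts in the line were considered. The members averaged far more than this minimum, so the shares of all genes beside them are not matched for read count. There is no replicate check for such a pair, and the 95% intervals given are exact Clopper-Pearson intervals that cover counting error only. In 22RV1 vector cells, 7 of 10 members were over 1.5-fold higher with H2O2, against 17.7% of all genes, and the members' median log2 fold change was 1.3 against -0.02 over all genes. In 22RV1 PAGE4 cells, 6 of 10 were called higher, against 14.8% of all genes, with a members' median of 0.84 against -0.01. In DU145, 8 of 10 were called higher in vector cells, against 19.0% of all genes, and 8 of 10 in PAGE4 cells, against 19.4%, with members' medians of 0.94 and 0.92 against -0.01 in both. No member was over 1.5-fold lower with H2O2 in any pair.

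The sizes of single pairs show where constructs of a line gave like values. For DUSP4 in 22RV1, the log2 fold change was 2.89 in vector cells (2.79 to 2.99) and 2.98 in PAGE4 cells (2.85 to 3.11). DUSP1 gave 1.87 (1.76 to 1.99) and 1.65 (1.53 to 1.77) in the same cells. DUSP5 gave 3.96 in 22RV1 vector cells (3.40 to 4.64) and 2.00 in 22RV1 PAGE4 cells (1.42 to 2.66). In DU145 DUSP5 gave 3.14 (3.01 to 3.28) in vector cells and 2.76 (2.65 to 2.88) in PAGE4 cells. SPRY4 in DU145 gave 3.27 (3.03 to 3.54) and 2.53 (2.32 to 2.76), and in 22RV1 0.36 (0.26 to 0.46) and -0.23 (-0.31 to -0.15), with opposite signs for the constructs. DUSP8 gave 1.535 and 0.97 in vector and PAGE4 cells of 22RV1, and 1.75 and 0.96 in those of DU145. Vector and PAGE4 intervals did not overlap in 22RV1 for DUSP5, DUSP6, DUSP8, DUSP10, SPRY2, SPRY4 and SPRED2, all lower in PAGE4 cells. In DU145 they did not for DUSP5, DUSP8 and SPRY4, lower in PAGE4 cells, and for DUSP4 and SPRED1, higher there. These intervals cover counting error only, and the share of all genes with such intervals was not computed. The lists thus have no background to be read against and do not show an effect of the construct.

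**Figure D2:**
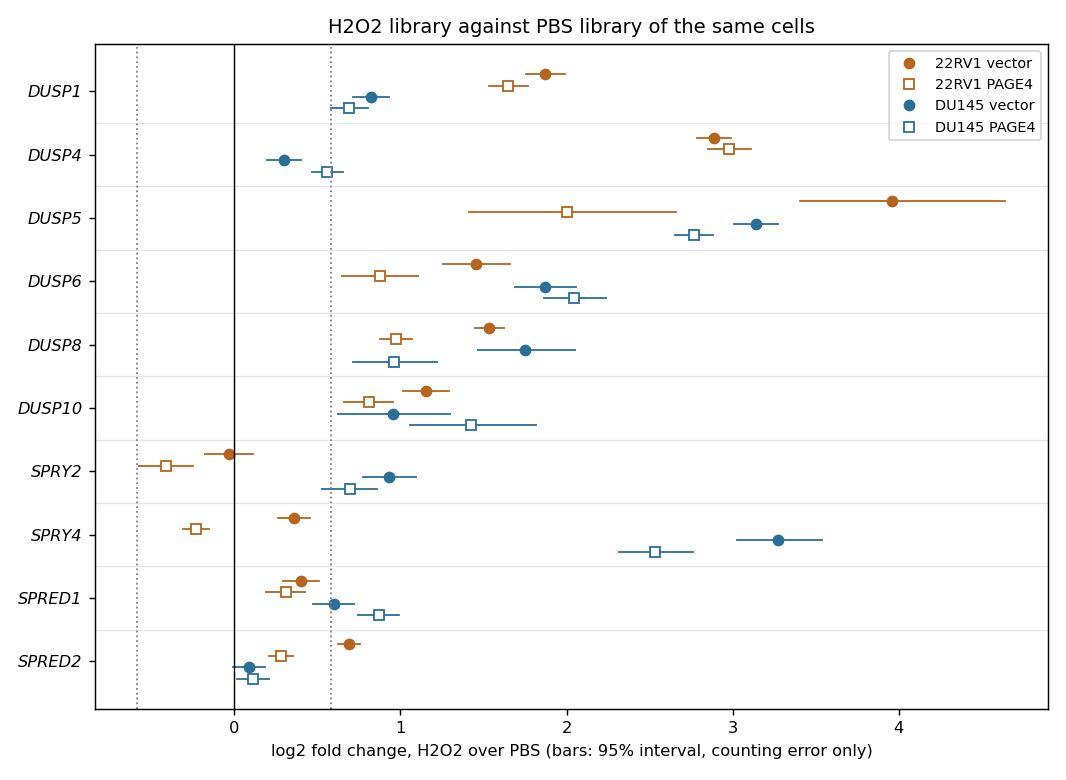
Log2 fold change of the H2O2 library over the PBS library (horizontal) for each member (vertical) in the 4 pairs, with 95% intervals for counting error and dotted lines at 1.5-fold. DUSP4 and DUSP1 lie farther right in 22RV1, and SPRY4 lies near 3 in DU145 vector cells (3.27) and near 0 in 22RV1.

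The difference between the H2O2 effects of the lines was tested next. All 8 libraries were fitted together, so the effect in a line rests on its own pairs but the spread was estimated over both lines. The p-values again do not rest on independent replicates. In 22RV1, 8 of 10 members rose in edgeR's test, against 15.2% of all genes (16.9% fell). The members' median log2 fold change there was 1.08 against -0.01 over all genes. SPRY4 (0.06, SE 0.14, adjusted p = 0.798) and SPRY2 (-0.22, SE 0.14, adjusted p = 0.239) did not pass. In DU145, 9 of 10 rose, against 19.2% of all genes (22.8% fell), with a median of 0.95 against -0.05. SPRED2 (0.05, SE 0.10, adjusted p = 0.715) did not pass. The difference itself passed for 6 of 10 members, against 19.5% of all genes, with 3 in each direction. Where a pair of a line is left out below, the effect in that line rests on 1 H2O2 and 1 PBS library, and the fit assumes that this pair varies as those of the other line do.

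SPRY4, SPRY2 and DUSP6 changed more in DU145. For SPRY4 the log2 effect was 2.84 in DU145 (SE 0.17), and the difference from 22RV1 was 2.79 (adjusted p = 2.11e-08). For SPRY2 it was 0.77 in DU145 (SE 0.14), with a difference of 0.99 (adjusted p = 0.00113). For DUSP6 it was 1.91 in DU145 (SE 0.15) and 1.17 in 22RV1 (SE 0.16), with a difference of 0.74 (adjusted p = 0.0209). The call on DUSP6 was lost with additive terms (adjusted p = 0.0788) and without the 22RV1 PAGE4 pair (0.0814), the DU145 PAGE4 pair (0.201) or the DU145 vector pair (0.0795).

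DUSP4, DUSP1 and SPRED2 changed more in 22RV1. The log2 effect on DUSP4 was 2.93 in 22RV1 (SE 0.10) and 0.38 in DU145 (SE 0.09), with a difference of -2.54 (adjusted p = 1.16e-10). The rise of DUSP4 in DU145 (adjusted p = 0.00272) did not pass with additive terms (0.14) or without the DU145 PAGE4 pair (0.233). DUSP1 rose by 1.76 in 22RV1 (SE 0.11) and by 0.71 in DU145 (SE 0.10), with a difference of -1.05 (adjusted p = 3.72e-05). SPRED2 rose by 0.48 in 22RV1 (SE 0.10), with a difference of -0.43 (adjusted p = 0.033). Without the 22RV1 vector pair its effect in 22RV1 was 0.28 (adjusted p = 0.0967) and the difference -0.18 (adjusted p = 0.437). The SPRED2 difference was also lost without the DU145 PAGE4 pair (0.189) or the DU145 vector pair (0.178), with DESeq2's Wald test (0.0936), with additive terms (0.0991) and without a count filter (0.103).

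For the remaining members, effects in 22RV1 and DU145 did not differ past the limit. DUSP8 rose by 1.25 and 1.29 (difference 0.04, adjusted p = 0.945), DUSP10 by 0.98 and 1.14 (difference 0.16, adjusted p = 0.719), and SPRED1 by 0.35 and 0.69 (difference 0.33, adjusted p = 0.145). DUSP5 rose by 3.14 (SE 0.28) and 2.90 (SE 0.16), with a difference of -0.24 (adjusted p = 0.683). That difference turned on the construct: it was -1 without the 22RV1 PAGE4 pair (adjusted p = 0.0101) and 0.93 without the 22RV1 vector pair (adjusted p = 0.0511), and without the latter pair the rise of DUSP5 in 22RV1 was 2.01. SPRED1 in 22RV1 (adjusted p = 0.0184) did not pass without the 22RV1 vector pair (0.13), with DESeq2's Wald test (0.0508), with additive terms (0.0504) or without a filter (0.0706).

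**Figure D3:**
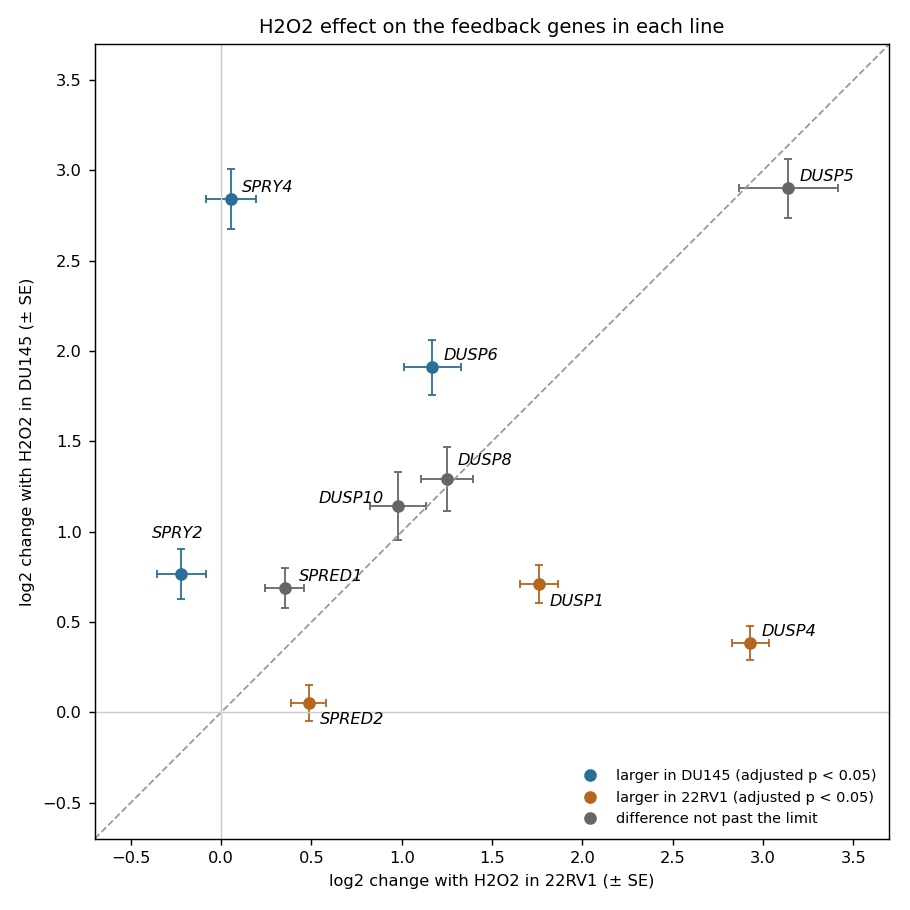
Log2 change with H2O2 in 22RV1 (horizontal) against DU145 (vertical) for each member in edgeR's fit, with standard errors as bars and the dashed line marking equal effects. SPRY4 (0.06 and 2.84) and DUSP4 (2.93 and 0.38) lie far from that line on opposite sides, and DUSP5, DUSP8 and DUSP10 lie near it.

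PAGE4 cells were compared with vector cells of the same line and treatment, to ask whether the construct moved the feedback genes. Over the 4 pairs, 0 of 10 members passed edgeR's test, against 0.136% of all genes (27 genes, and 89 with DESeq2's Wald test), and 1 member had an unadjusted p under 0.05. That member was SPRY4, with a log2 fold change of 0.57 (SE 0.19, adjusted p = 0.48). It passed without the DU145 H2O2 pair (0.86, adjusted p = 0.0255) and, with the SE down to 0.1, without a count filter (adjusted p = 4.45e-06). Without the 22RV1 PBS pair it was 0.32 (adjusted p = 0.999), and with additive terms it was 0.54 (SE 0.52, adjusted p = 1). The other 9 members lay between -0.10 and 0.11, and the median of the 10 was -0.02 against -0.01 over all genes. The H2O2 effect in PAGE4 cells minus that in vector cells passed for 0 of 10 members, against 0% of all genes (52 genes at an unadjusted p under 0.05 in edgeR, and 0 calls with 17 such genes in DESeq2). The unlike H2O2 responses of the lines count as spread in this contrast (SE 1.23 for SPRY4), so hardly any gene could pass. Its 0 calls do not show that cells of both constructs responded alike. The largest such differences among the members were those of DUSP5 (-0.99, SE 0.39, unadjusted p = 0.0405) and DUSP8 (-0.66, SE 0.24, unadjusted p = 0.0328), both with an adjusted p of 1.

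The PAGE4 effect differed between the lines for 3 of 10 members, against 2.49% of all genes. For SPRY4 the effect in DU145 minus that in 22RV1 was -0.95 (adjusted p = 0.0195), for DUSP4 it was 0.77 (adjusted p = 0.00259), and for DUSP5 it was 1.33 (adjusted p = 0.0201). None of the 3 passed with additive terms or without the DU145 H2O2 pair (adjusted p = 0.63, 0.11 and 0.199). The DUSP5 value was -0.19 without the 22RV1 H2O2 pair, did not pass without the DU145 PBS pair (adjusted p = 0.107), and was 0.86 with DESeq2's Wald test (adjusted p = 0.849). It rests on the H2O2 libraries of 22RV1, where the vector library held 340 reads of DUSP5 and the PAGE4 library 89. The SPRY4 value was -0.47 without the DU145 H2O2 pair. With additive terms, 5 of 19784 genes passed this test in place of 493, so the loss there is not particular to the members. For DUSP4 the SE was then 0.924 in place of 0.135.

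In single pairs, 1 of 10 members was over 1.5-fold apart in 22RV1 with PBS, against 19.7% of all genes: SPRY4, higher in PAGE4 cells by 1.28 on the log2 scale (1.20 to 1.37). In 22RV1 with H2O2, 2 of 10 were called, against 23.2%: SPRY4 was higher by 0.69 (0.60 to 0.79) and DUSP5 was at -1.48 (-1.84 to -1.14). In DU145 with PBS, 1 of 10 was called, against 15.3%, namely DUSP8 at 0.68 (0.36 to 1.01), from 130 reads in the vector library and 206 in the PAGE4 library. In DU145 with H2O2, 0 of 10 were called, against 15.2%. These shares take in genes with far fewer reads than the members and are not matched for read count. Fewer calls among the members do not show that they moved less than other genes. DUSP4 was on opposite sides of 0 in the lines, at -0.51 and -0.42 in 22RV1 with PBS and H2O2 and at 0.17 and 0.43 in DU145.

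**Figure D4:**
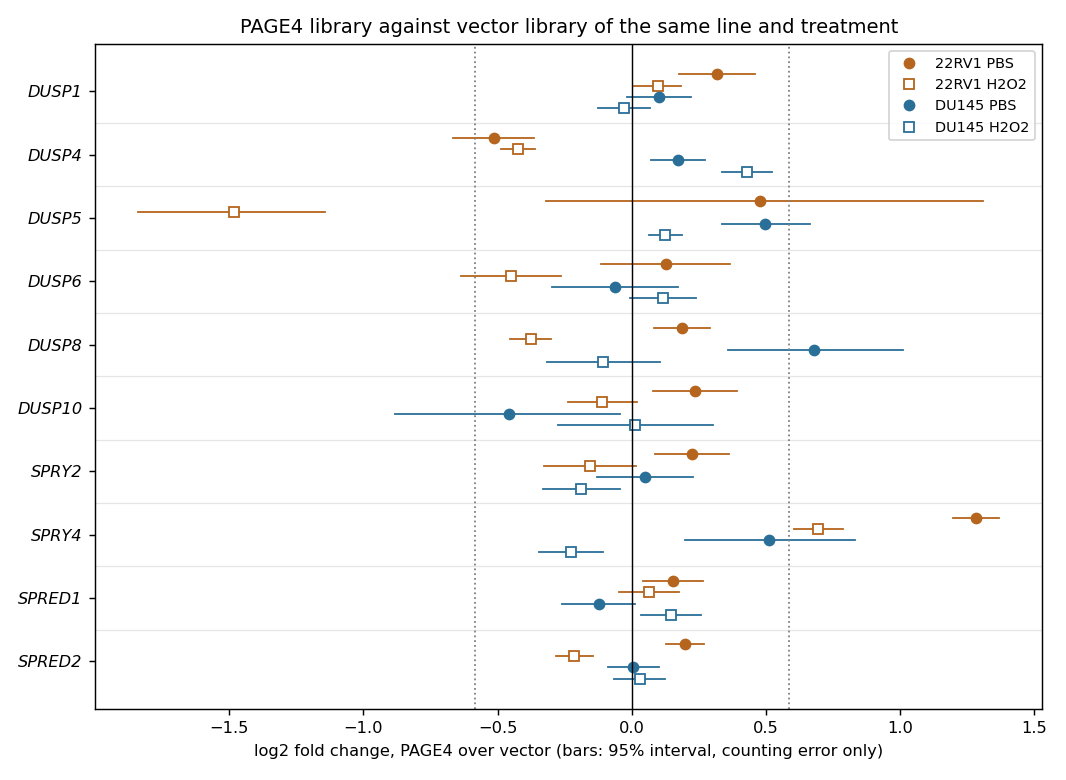
Log2 fold change of the PAGE4 library over the vector library (horizontal) for each member (vertical) in the 4 pairs of line and treatment, with 95% intervals for counting error and dotted lines at 1.5-fold. SPRY4 in 22RV1 (1.28 with PBS) and DUSP5 in 22RV1 with H2O2 (-1.48) lie farthest from 0.

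Levels of the members were compared between the lines in libraries of the same construct and treatment. In edgeR's test, 2 of 10 were higher and 4 of 10 lower in DU145, against 63.2% of all genes called in either direction. DUSP5 was higher in DU145 by 5.02 (SE 0.27, adjusted p = 4.75e-06) and DUSP6 by 1.11 (SE 0.20, adjusted p = 0.00186). DUSP8 stood at -2.54 (SE 0.14, adjusted p = 4.46e-06), DUSP10 at -2.02 (SE 0.17, adjusted p = 3.44e-05), SPRY4 at -1.72 (SE 0.59, adjusted p = 0.034) and SPRED2 at -0.35 (SE 0.12, adjusted p = 0.0366). DUSP1 (0.57, adjusted p = 0.0506), SPRY2 (0.39, adjusted p = 0.157), SPRED1 (0.26, adjusted p = 0.1) and DUSP4 (0.47, adjusted p = 0.456) did not pass. These values average over PBS and H2O2. In vector and PAGE4 cells, DUSP4 was higher in DU145 with PBS (55.2 and 62 against 20.8 and 14.3 CPM). With H2O2 it was lower there (66 and 88 against 153 and 114 CPM). SPRY4 was lower in DU145 with PBS (5.26 and 7.51 against 36.3 and 86.7 CPM). With H2O2 it stood at 49.6 and 41.9 CPM in DU145 against 46 and 74.4 CPM in 22RV1. The SPRY4 call was lost without the PAGE4 PBS pair (-1.10, adjusted p = 0.0835) or the vector PBS pair (0.103), the SPRED2 call without the PAGE4 PBS (0.0574), PAGE4 H2O2 (0.107) or vector H2O2 pair (0.16), and DUSP1 passed with DESeq2's Wald test (0.0241) and without either H2O2 pair (0.0221 and 0.0381).

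To compare genes with each other, CPM were divided by the exonic length of the gene in kilobases (GENCODE release 44), and ranges are over the 2 constructs. In 22RV1 with PBS, SPRED2 was highest at 12.9 to 14.5 CPM per kb, followed by DUSP1 (8.71 to 10.7), SPRY4 (5.53 to 13.2) and DUSP8 (6.84 to 7.65), where DUSP1, SPRY4 and DUSP8 overlapped along this order and the upper value of SPRY4, that of PAGE4 cells, reached the range of SPRED2. SPRY2, DUSP10, SPRED1, DUSP4 and DUSP6 came next, and DUSP5 was lowest at 0.221 to 0.304. With H2O2 in 22RV1, DUSP1 led at 31.5 to 33.7 CPM per kb, and SPRED2, DUSP4 and DUSP8 followed with ranges that overlapped between neighbours, from 15.1 to 21. DUSP5 stayed lowest in 22RV1 at 1.24 to 3.48, although its upper value reached the range of DUSP6 (3.36 to 4.6).

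In DU145 with PBS, DUSP1 was highest at 19.9 to 21.4 CPM per kb, then SPRED2 at 12.4 to 12.5 and DUSP5 at 7.53 to 10.6, which overlapped DUSP4 at 7.59 to 8.53. DUSP10, DUSP8 and SPRY4 were lowest and overlapped, between 0.803 and 1.54. With H2O2 in DU145, DUSP5 led at 64.5 to 69.5 CPM per kb, above DUSP1 at 33.3 to 34.3 and SPRED2 at 12.9 to 13. DUSP6, DUSP4 and SPRY2 followed with ranges overlapping between neighbours, SPRY4 (6.4 to 7.57) overlapped SPRED1 (6.5 to 7.12), and DUSP8 and DUSP10 were last at 2.85 to 3.14.

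Other genes of the pathway were read in the same fits. Of the 4 other MAP kinase phosphatases, 1 rose over the 4 pairs, against 10.2% of all genes. It was DUSP16 (0.35, SE 0.10, adjusted p = 0.0421), a JNK and p38 phosphatase. DUSP2 and DUSP7 rose in DU145 (1.5 and 1.21) and differed from 22RV1 by 1.5 and 1.14 (adjusted p = 0.000342 and 0.000117). This was the direction seen for DUSP6 and the opposite of that for DUSP1 and DUSP4, while DUSP16 (-0.28, adjusted p = 0.148) and DUSP9 (-0.03, adjusted p = 0.985) did not pass. Of SPRY1, SPRY3 and SPRED3, none passed over the 4 pairs. SPRY1 rose in DU145 (0.85, adjusted p = 0.0031), with a difference from 22RV1 of 1.00 (adjusted p = 0.0249), so that 3 Sprouty genes (SPRY1, SPRY2 and SPRY4) passed this test in that direction. SPRY3 had a difference of -0.88 (SE 0.50, adjusted p = 0.245). SPRED3 rose in 22RV1 (1.04, adjusted p = 0.00206).

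Of 11 genes known to be transcribed downstream of ERK, 5 rose over the 4 pairs, against 10.2% of all genes, and none fell, against 12.7%, with a median log2 fold change of 0.69 against -0.04 over all genes. They were ETV5 (0.98), PHLDA1 (1.19), EPHA2 (1.34), IER3 (0.91) and FOSL1, a subunit of AP-1 (3.01, SE 0.57, adjusted p = 0.0109). In 22RV1, 6 rose and 3 fell, where 15.2% and 16.9% of all genes did. In DU145, 9 rose and 1 fell, where 19.2% and 22.8% did. The difference between the lines passed for 5 of 11, against 19.5% of all genes: CCND1 (-0.40 in 22RV1 and 0.85 in DU145) and MYC (-0.99 and 0.43) had the higher value in DU145, and EGR1 (1.28 and -0.57), FOSL1 (5.25 and 1.96) and EPHA2 (1.81 and 0.89) had it in 22RV1. FOSL1 in 22RV1 rested on levels of 0.672 and 0.323 CPM with PBS. The output genes thus split between the lines in both directions, as did the 10 feedback genes.

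Of 7 other negative regulators of the receptor, RAS and ERK route, 2 rose and 2 fell over the 4 pairs, against 10.2% and 12.7% of all genes. ERRFI1, a feedback inhibitor of the EGF receptor, rose by 1.00 and the ubiquitin ligase gene CBL by 0.30, while IL17RD, an inhibitor of FGF receptor signalling, fell by 0.92 and PEBP1, an inhibitor of RAF, fell by 0.53. Of the MAP kinases themselves, 9 of 10 could be tested, and 0 rose and 4 fell, against 10.2% and 12.7% of all genes: MAPK3 (-0.79), which encodes ERK1, MAPK9 (-0.44), which encodes JNK2, and the p38 genes MAPK11 (-0.68) and MAPK12 (-0.31). Of 9 atypical dual-specificity phosphatases, which lack the MAP kinase docking domain, 3 rose, DUSP11 (0.69), DUSP12 (0.56) and DUSP14 (0.78), against 10.2% of all genes, and 1 fell, DUSP23 (-0.43), against 12.7%.

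**Figure D5:**
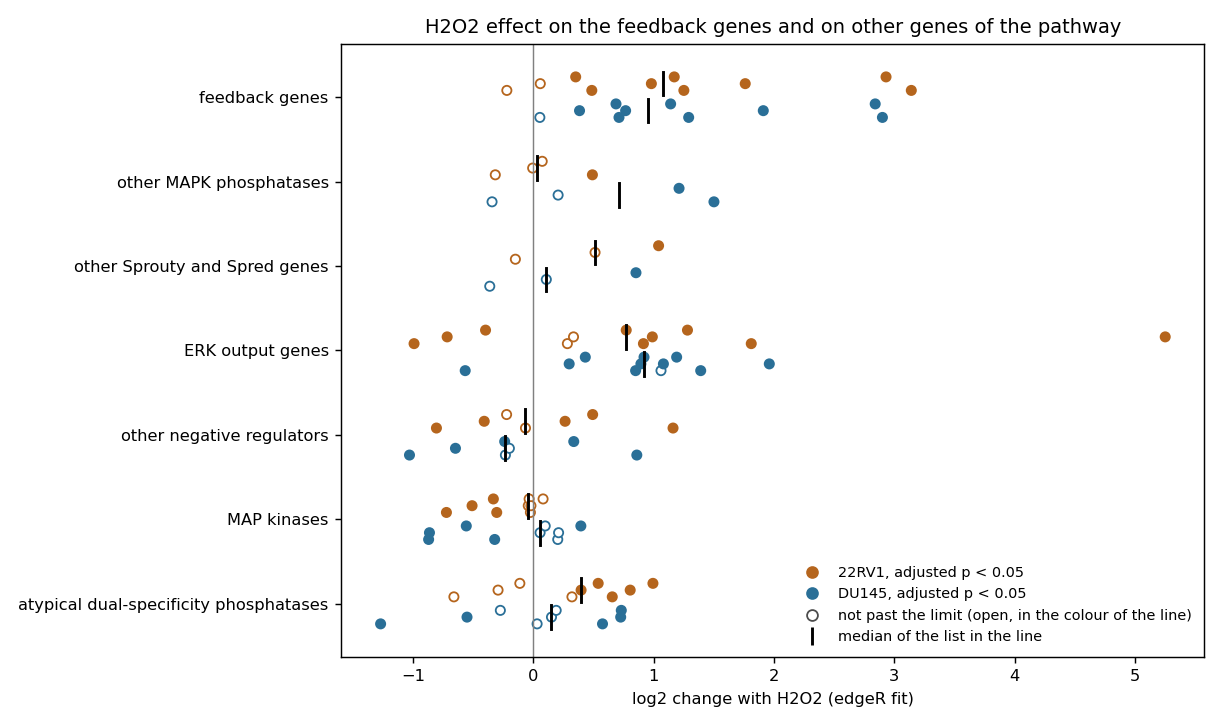
Log2 change with H2O2 in edgeR's fit (horizontal) for the 10 feedback genes and 6 other lists (vertical), in 22RV1 and DU145, with filled points past the limit, open points not past it and bars at list medians. The feedback genes have medians of 1.08 and 0.95, and the MAP kinases have medians of -0.04 and 0.06.

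The members' patterns over the 8 libraries were compared as log2 normalized counts centred on the mean of each line. The points share 4 cultures and the H2O2 contrast, so the correlations are descriptions. DUSP5 and DUSP8 had Pearson's r = 0.98, DUSP6 and SPRED1 had r = 0.97, and DUSP6 and DUSP10 had r = 0.96. SPRY2 and SPRY4 had r = 0.91 with each other, while DUSP4 had r = 0.10 with SPRY4 and r = -0.14 with SPRY2. DUSP4 was nearest to DUSP1 (r = 0.92) and SPRED2 (r = 0.91). Among 12322 genes that averaged 50 or more normalized counts in each line, the 3 most like DUSP1 were GDF15, CLIP4 and ZNF483 (r = 0.997, 0.991 and 0.991), and the 3 most like DUSP6 were PUS3, MAPK6 and SAP30BP (r = 0.998, 0.998 and 0.997).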

How the data were processed

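RNA-seq libraries of 22RV1 and DU145 cells were analysed, 1 per condition. The authors mapped reads with HISAT2 2.1.0 to GRCh38 and counted them with featureCounts 1.6.0, per the labels and methods, and deposited those raw counts for each gene in 1 table per line. The labels name Trizol and the methods a column kit for RNA extraction. The annotation and strand setting are not given in the sources used here. The tables list 58828 symbols, of which 26 look like dates and were kept as written.

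Counts of all 8 libraries were fitted with edgeR 4.0.16 (R 4.3.3; filterByExpr by line, TMM factors of 0.91 to 1.12, quasi-likelihood test, Benjamini-Hochberg adjustment), with the 4 pairs as blocks. Folds of single pairs used DESeq2 1.42.0 size factors within a line and a pseudocount of 0.5. Scripts were tested on simulated data. Alternatives were other normalizations, filters, tests, pseudocounts, fold limits, additive terms in place of blocks, and each pair left out. All members are named. From the other lists, the genes named passed a test of H2O2 or of its difference between the lines, except DUSP9 and SPRY3. The members and lists were chosen with earlier results of these data known. The markers given singly were picked after their values were seen. One marker fixed for 22RV1 is not reported here.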

Additional observations from a re-analysis of the deposited data

Results flagged for a closer look

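The following differences between the lines passed edgeR's quasi-likelihood test of the difference itself, each as the log2 effect in DU145 minus that in 22RV1. For H2O2 they were 2.79 for SPRY4, 0.987 for SPRY2 and 0.741 for DUSP6, and -2.54 for DUSP4, -1.05 for DUSP1 and -0.432 for SPRED2. For PAGE4 they were -0.945 for SPRY4, 0.77 for DUSP4 and 1.33 for DUSP5. With 1 library per condition, no group was large enough to look for single libraries far from the rest.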

How the results depend on the processing

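Across 224 recomputed comparisons under other normalizations, filters, tests and terms, 201 kept their direction and their side of the limit, and none changed sign. Of 224 with a pair left out, 190 did so and 7 changed sign. These were, with the lowest and highest values over the pairs left out, the H2O2 effect on SPRY4 in 22RV1 (-0.23 to 0.32), the H2O2 difference between lines for DUSP5 (-1 to 0.929), DUSP8 (-0.335 to 0.469) and DUSP10 (-0.056 to 0.401), the PAGE4 difference between lines for DUSP5 (-0.19 to 1.73) and the line effect on DUSP4 (-0.0862 to 1.06). The count of members that passed for PAGE4 over the 4 pairs, 0 in the report, was 1 without a filter and 0 to 1 with a pair left out. The count for the PAGE4 difference between lines, 3 in the report, was 0 with additive terms and 0 to 3 with a pair left out. With additive terms, 5 of all genes passed the PAGE4 difference between lines, where 493 did in the main fit. With a 2-fold limit, the members' H2O2 calls were 6 in 22RV1 vector cells, 3 in 22RV1 PAGE4 cells and 4 in both DU145 pairs. The PAGE4 calls were then 1 in 22RV1 with PBS, 1 in 22RV1 with H2O2 and 0 in both DU145 pairs. The share of all genes over 2-fold was not computed, so these counts have no background to be read against. No paired analysis was possible by replicate number because every condition has 1 library, and the tests pair libraries that share the other 2 factors. With a pair left out, an effect within a line rests on 1 pair, which is assumed to vary as the others do. For these changes the cause was not tested. Without a filter, the standard error of the H2O2 effect on DUSP4 over the 4 pairs was 0.14 in place of 0.51, and that on DUSP10 was 0.18 in place of 0.14.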
